A study of Mus musculus with 8 samples.

Results

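The 34 protein-coding genes described here encode the WNT ligands and their receptors in the mouse: 19 ligand genes (Wnt1 to Wnt16), 10 Frizzled receptor genes (Fzd1 to Fzd10), and the co-receptor genes Lrp5, Lrp6, Ror1, Ror2 and Ryk. They are the protein-coding genes whose symbols match these names in a table of 55536 genes. RNA was sequenced from posterior palatal shelves, the paired outgrowths that form the roof of the mouth, dissected before elevation from E14.5 embryos and holding epithelium and mesenchyme together. The 4 control libraries came from Yapfl/fl;Tazfl/fl embryos, with floxed Yap and Taz alleles and no Cre, and the 4 mutant libraries from Yapfl/fl;Tazfl/fl;Col2Cre embryos. Both groups carry the floxed alleles. In the mutants Cre is driven by regulatory sequence of the cartilage collagen gene Col2a1, so cells outside its activity keep both genes. The comparison asks which genes differ in unelevated shelves when Col2Cre is present. Nothing in the labels says that the libraries came from different embryos, so a p-value here reflects library-to-library spread, which may be technical.

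WNT proteins are secreted, lipid-modified glycoproteins that act mostly on nearby cells. They bind the cysteine-rich domain of a Frizzled receptor. With LRP5 or LRP6 as co-receptor this stabilises beta-catenin, which works with TCF and LEF factors in the nucleus, whereas ROR1, ROR2 and RYK take part in branches that do not need beta-catenin, such as planar cell polarity. In the developing palate, WNT5A and ROR2 are known for directing mesenchymal cell movement, and mice that lack certain pairs of Frizzled genes have a cleft palate.

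YAP and TAZ act on DNA through TEAD factors, and beta-catenin through TCF and LEF, so the upstream windows of the members were searched for the letters of both motifs. RefSeq (GRCm38.p6) had 27 windows, for 24 of the 34 genes, and the search covered the 250 bases before each start site. The TEAD motif searched was GGAATG and the TCF/LEF motifs were CTTTGAA and CTTTGAT, on both strands. TEAD letters were found in 0 of 27 member windows, against 12.6% of all 32851 windows. TCF/LEF letters were found in 2 of 27, 1 window each of Wnt11 and Wnt5b, against 7.48% of all windows. A match describes letters only, and their absence says nothing about distant sites. Member windows were richer in G and C than most (median 71.6%, against 52.4% for all windows). The windows of 3 genes follow in the direction of transcription: those of Wnt6 (chr1:74771642-74771891, plus strand) and Fzd5 (chr1:64737751-64738000, minus strand), which had the smallest p among members with higher and with lower means in mutants, and that of Wnt11 (chr7:98834862-98835111, plus strand), the most abundant ligand transcript per length. Capitals mark a motif match; Wnt6 and Fzd5 have none, and the match in Wnt11 begins 51 bases before the start site.
Wnt6: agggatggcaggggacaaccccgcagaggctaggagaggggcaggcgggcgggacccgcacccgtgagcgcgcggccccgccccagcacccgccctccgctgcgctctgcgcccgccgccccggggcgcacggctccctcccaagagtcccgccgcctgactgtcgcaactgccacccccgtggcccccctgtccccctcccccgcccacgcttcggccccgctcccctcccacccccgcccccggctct
Fzd5: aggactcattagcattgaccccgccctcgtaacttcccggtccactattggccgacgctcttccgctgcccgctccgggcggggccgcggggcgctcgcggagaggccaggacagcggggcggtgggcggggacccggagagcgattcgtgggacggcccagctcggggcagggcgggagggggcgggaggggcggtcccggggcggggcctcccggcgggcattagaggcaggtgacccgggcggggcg
Wnt11: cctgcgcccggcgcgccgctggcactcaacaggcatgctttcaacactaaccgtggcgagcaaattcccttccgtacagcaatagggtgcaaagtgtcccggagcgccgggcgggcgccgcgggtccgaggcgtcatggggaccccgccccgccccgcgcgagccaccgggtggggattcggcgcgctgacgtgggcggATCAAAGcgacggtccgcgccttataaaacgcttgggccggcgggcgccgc

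The libraries were of even depth, with 29025089 to 32437977 reads recovered from the deposited values. The mesenchymal transcription factor genes Meox2 and Tbx22 had means of 8675 and 1294 normalised counts in controls, and Epcam, an epithelial adhesion gene, 3334. Shox2 and Msx1, from the same palatal mesenchyme list as Meox2, had control means of 629 and 79. Shox2 ran from 400.1 to 1056.3 across controls and from 387.0 to 780.5 across mutants. A normalised count is a gene's reads divided by the library's size factor. Yap1 had lower counts in every mutant library (9610 ± 429, SD, n = 4, against 8463 ± 277, SD, n = 4), and Wwtr1, the gene for TAZ, had 4879 ± 352 and 4007 ± 397. Neither passed the test over all genes (limma adjusted p = 0.751 for both). These counts cover whole genes, and the labels do not say which exons are floxed, so they check the labels only in part. Xist, a transcript of female cells, was at 840.4 in mutant replicate 2 and at most 17.4 elsewhere. Sex was not part of the fit, and whether it plays a part in the values of mutant replicate 2 was not tested. The ribosomal RNA locus Gm42418 took 4.22% to 5.66% of the reads of the controls and 1.56% to 2.48% of the mutants, and it was among the 4 genes that passed the test (limma adjusted p = 0.0156). Epithelial markers had higher means in mutants for 24 of 24 genes, and osteogenic markers lower means for 12 of 12. Means were lower for 10 of 11 chondrogenic and 10 of 12 endothelial markers, higher for 7 of 9 markers of neurons and glia, and divided evenly for palatal mesenchyme. Skeletal muscle markers were higher for 6 of 11. Their summed counts ran from 35912 to 45847 in controls and from 18340 (replicate 4) to 69098 (replicate 3) in mutants.

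Of the 34 members, 32 were tested, those with at least 10 normalised counts in at least 4 of the 8 libraries. Wnt1, the hindbrain and neural crest ligand, was at 0 in every library, and a count of 0 allows up to 3 reads in each. Wnt8a, a ligand of early embryos, was at 0 in 6 libraries and at most 9.6. Among the tested ligands Wnt8b was at 0 in 3 libraries and Wnt7a in 1. Members filtered on counts in only some libraries can pass through either group, so the counts below describe the 32 and not the family.

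No member differed past the threshold. With limma on log2(normalised count + 1) and Benjamini-Hochberg adjustment over 16647 genes, 0 members were lower and 0 higher in mutants, where 0.0240% of all genes were called. edgeR and DESeq2 on recovered reads also called 0 members, against 0.0300% and 0.187% of genes. Before adjustment, 6 members had a limma p below 0.05, 18.8% of those tested against 6.57% of all genes. Higher in mutants were Wnt6, Wnt10a, Wnt7b and Fzd10, 12.5% of members against 2.78% of all genes. Lower were Fzd5 and Lrp6, 6.25% against 3.79%. The groups did not overlap for 2 members (6.25%, against 3.77% of all genes), Wnt10a above and Lrp6 below. Means leaned upward: 22 of 32 members were higher in mutants and 10 lower, with a median log2 difference of 0.10, where all genes tested divided into 8317 higher and 8330 lower around a median of -0.0001. Ligands contributed most of this, with 13 of 17 higher and a median of 0.26, against 7 of 10 Frizzled genes and a median of 0.06, and 2 of 5 co-receptors and a median of -0.06. The ligand median is the value of Wnt2b, a scarce gene. Of the higher ligands, Wnt2b, Wnt3, Wnt3a, Wnt8b and Wnt16 changed direction under some alternative settings. Among the lower ones Wnt5a and Wnt9a did.

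**Figure D1:**
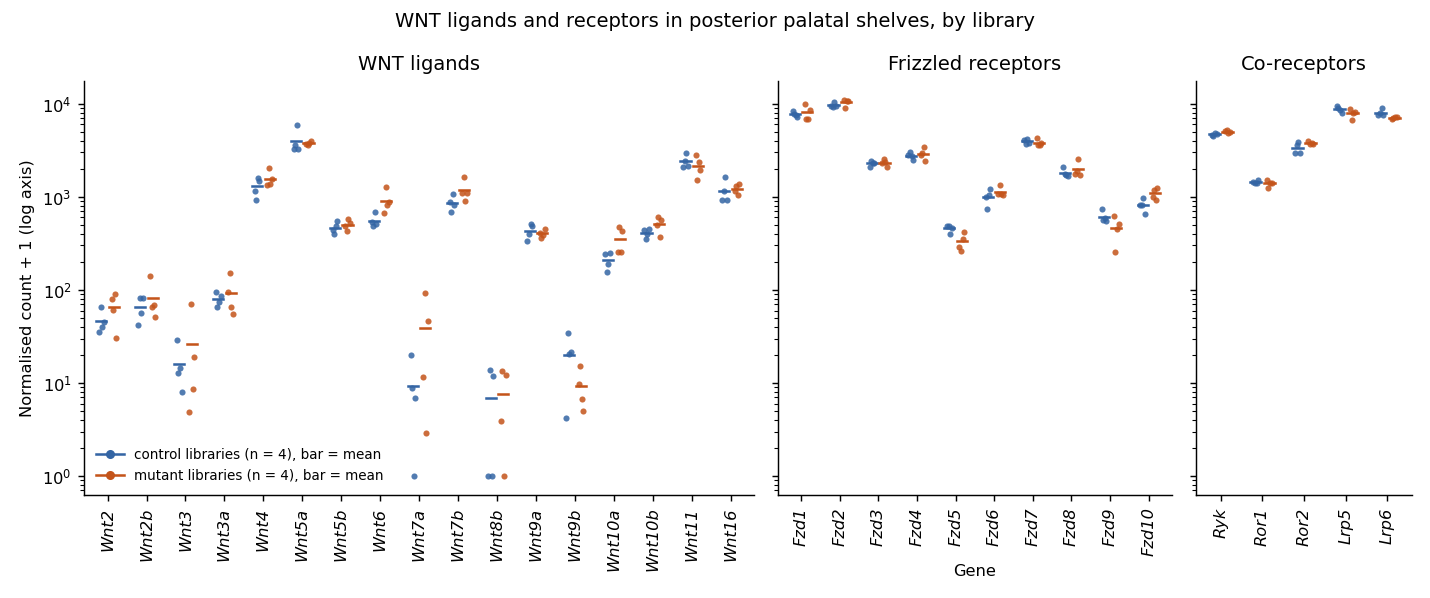
Normalised count plus 1 (log axis) of the 32 tested members in each of the 4 control (blue) and 4 mutant (orange) libraries, with a bar at each group mean, in panels for ligands, Frizzled receptors and co-receptors. The receptors sit between 255.5 and 11027.3 in every library, whereas ligands range from 0 to 5934.1.

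The ligands differed widely in level. To compare genes, normalised counts were divided by exon length in kilobases, and values called per-kilobase levels below are on that scale. Wnt11, a ligand of cell movement during organ formation, had the highest mean per-kilobase level in controls, 584 ± 92.7 (SD, n = 4), followed by Wnt5a at 514 ± 164, and the control ranges of this pair overlapped. Both stood clear of the next, Wnt4 at 308 ± 74.1, whose range overlapped that of Wnt16 at 266 ± 75.7, as that of Wnt16 overlapped Wnt6 at 252 ± 41.5. From there to Wnt10b at 121 ± 13.5 each gene overlapped its neighbour. Wnt10a at 84.7 ± 17.9 lay below Wnt10b and above Wnt3a at 28.6 ± 4.72 with no overlap on either side. Below Wnt3a came Wnt2 at 20.1, Wnt2b at 15.3, and Wnt3, Wnt9b, Wnt7a and Wnt8b, all under 5. Wnt9b, a ligand of facial epithelium needed for lip fusion, was thus scarce here, from 3.2 to 33.2 normalised counts. The 6 most abundant ligands made up 77.8% ± 3.47 of the summed ligand level per kilobase among controls and 76.6% ± 0.890 among mutants (SD, n = 4 each).

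Wnt6, an epithelial ligand of skin and other surfaces, had the smallest p of all members. Its 4 control libraries, replicates 1 to 4, had 534.5, 479.3, 684.3 and 509.7 normalised counts. The mutants had 662.2, 1269.2, 806.6 and 874.9. Mutant replicate 2 was the highest, and only control replicate 3 reached into the mutant range, just above mutant replicate 1. The mean was 552 ± 91.1 for controls against 903 ± 260 for mutants (SD, n = 4 each), and the log2 difference was 0.68 (95% interval 0.29 to 1.08, unadjusted p = 0.00275, limma adjusted p = 0.751). DESeq2 gave the smallest adjusted p of any setting, 0.0605, and the other settings gave up to 0.976. Without mutant replicate 2 the difference was 0.50, and without mutant replicate 1 it was 0.82. In this tissue of mixed cells, more cells of a type and more RNA per cell cannot be told apart.

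Wnt10a, a ligand of tooth and skin appendage development, lies 6193 bp downstream of Wnt6 on the same strand of chromosome 1 (Wnt6 from 74771892 to 74785322, Wnt10a from 74791516 to 74804179 in the table's coordinates). Controls had 242.8, 155.2, 190.8 and 247.5 normalised counts for Wnt10a. Mutants had 253.8, 477.0, 251.8 and 427.8. Mutant replicates 2 and 4 were high, while mutant replicates 1 and 3 lay just above the highest control, so the groups did not overlap by a margin of 251.8 against 247.5. The log2 difference was 0.72 (95% interval 0.18 to 1.25, unadjusted p = 0.0129, limma adjusted p = 0.754), and 0.55 without mutant replicate 2.

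The other ligand genes that are neighbours within 24328 bp form 3 pairs, all on opposite strands. Wnt3 and Wnt9b on chromosome 11 had log2 differences of 0.12 and -0.91. Wnt9a and Wnt3a, on the same chromosome, had -0.08 and 0.09. Wnt10b on chromosome 15 had 0.29, and its neighbour Wnt1 was at 0. Thus Wnt6 with Wnt10a was the only neighbouring pair in which both genes had an unadjusted p below 0.05.

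Wnt7b, a ligand of epithelia that signals to the tissue beneath, followed a similar order. Its controls had 880.6, 686.3, 1075.2 and 808.2 normalised counts and its mutants 1104.7, 1648.7, 910.8 and 1094.4. Control replicate 3 lay above mutant replicate 3, and mutant replicate 2 was the highest again. The log2 difference was 0.45 (95% interval 0.06 to 0.83, unadjusted p = 0.0256, limma adjusted p = 0.754). It no longer had an unadjusted limma p below 0.05 without mutant replicate 2, where it was 0.28, without control replicate 2 (0.34) or without control replicate 4 (0.42). Wnt7b overlaps the non-coding gene AU022754 on the opposite strand by 680 bp, and that gene had a mean of 39.8 normalised counts.

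**Figure D2:**
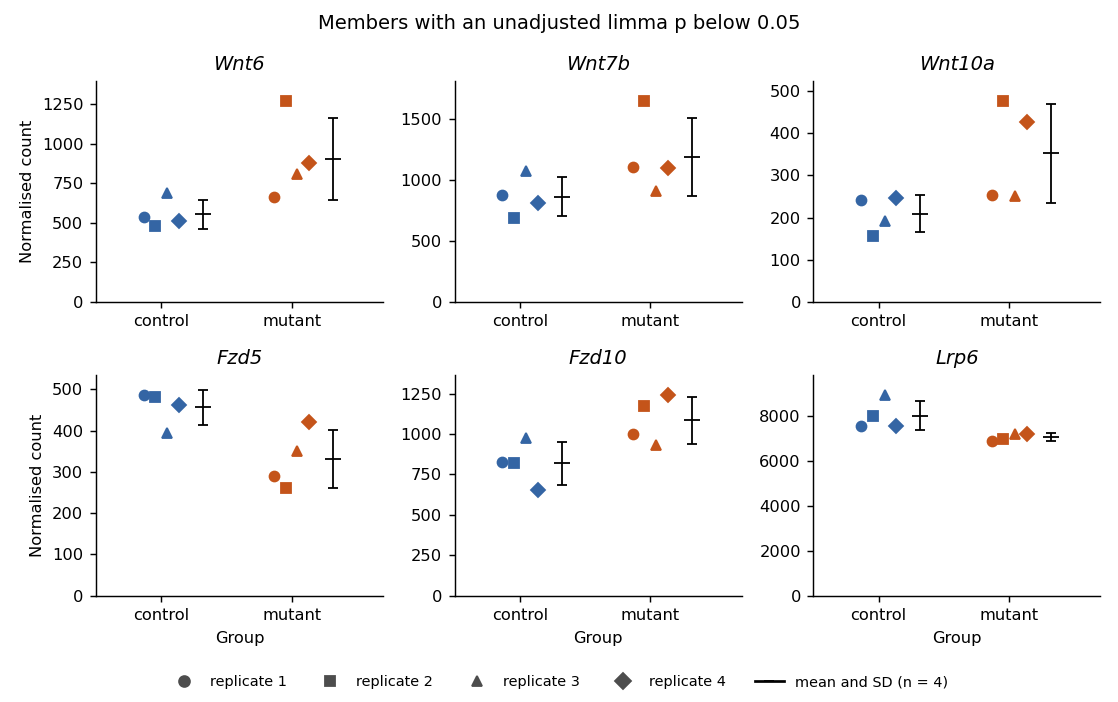
Normalised count (axes from 0) of the 6 members with an unadjusted limma p below 0.05, by group, with a marker shape for each replicate and the mean and SD over 4 libraries. Mutant replicate 2 is the highest mutant library for Wnt6, Wnt7b and Wnt10a and the lowest for Fzd5, and only Wnt10a and Lrp6 show no overlap.

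Epithelial markers, like these ligands, were highest in mutant replicate 2. Among controls the markers and Wnt10a were highest in replicate 4, and Wnt6 and Wnt7b in replicate 3. The markers, Wnt6, Wnt10a, Wnt7b, Wnt4 and Wnt10b were all lowest in control replicate 2. The list of 24 epithelial and periderm genes had a mean log2 level, relative to the control mean, of -0.27 to 0.28 in controls and of -0.07, 0.71, 0.18 and 0.24 in mutant replicates 1 to 4. Summed over the list, counts ran from 58847 to 81318 in controls and from 63143 to 113766 in mutants, and no marker was at 0. On the same scale Wnt6 stood at 0.28, 1.21, 0.56 and 0.68 in the mutants, above the marker level in each of them, and at -0.03, -0.19, 0.32 and -0.10 in the controls. Wnt10a stood at 0.30, 1.21, 0.29 and 1.05 in the mutants, also above the markers, and at 0.24, -0.40, -0.11 and 0.27 in the controls. Wnt7b, at 0.38, 0.95, 0.10 and 0.36, was below the marker level in mutant replicate 3. Wnt4, at 0.08, 0.68, 0.11 and 0.29, was below it in mutant replicates 2 and 3, and Wnt10b, at 0.29, 0.56, -0.13 and 0.44, in the same pair of libraries. Mutant replicate 1, with marker level -0.07, had values of 0.28 to 0.38 for Wnt6, Wnt10a and Wnt7b. Among the markers 5 of 24 had an unadjusted limma p below 0.05, all higher in mutants (20.8%, against 2.78% of all genes). Erythroid markers were also higher in mean for 8 of 8 genes and highest in mutant replicate 2, with sums of 26376 to 35518 in controls and 24566 to 53643 in mutants, and none at 0. The part of epithelial or blood content in the ligand values was not tested.

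**Figure D3:**
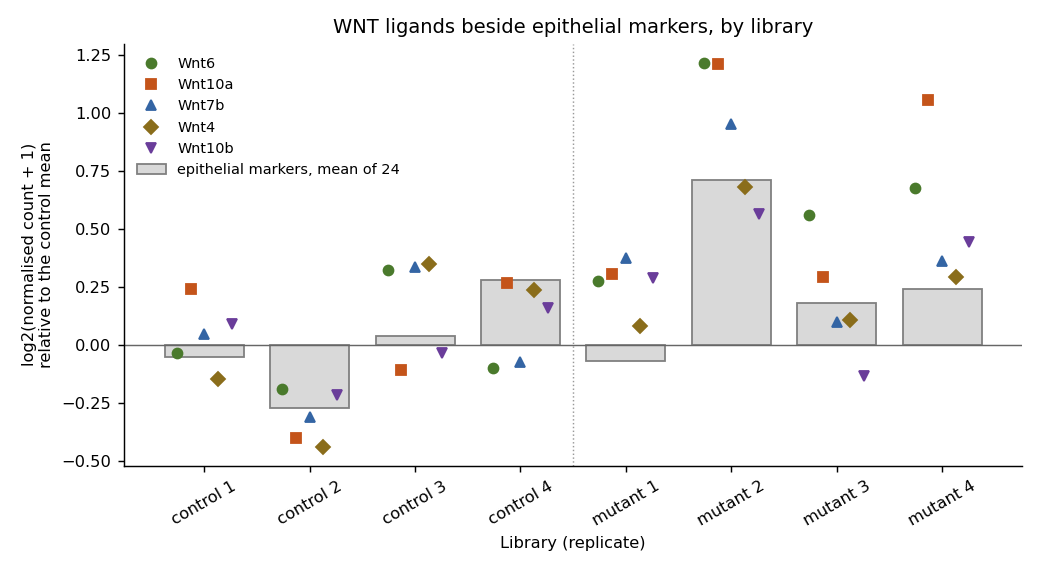
Level of Wnt6, Wnt10a, Wnt7b, Wnt4 and Wnt10b in each library as log2(normalised count + 1) relative to the control mean (points), beside the mean of 24 epithelial markers on the same scale (grey bars from 0). Mutant replicate 2 has the highest bar, 0.71, and the highest point of each of these ligands.

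A pair of further ligands had a higher mean with an interval that included 0. Wnt4, a ligand of kidney and gonad development also made by epithelia, averaged 1293 ± 311 normalised counts across controls and 1567 ± 318 across mutants (SD, n = 4 each), or 0.29 apart on the log2 scale (95% interval -0.09 to 0.67). Wnt10b, known in hair follicles and bone, had 410 ± 45.8 and 508 ± 100, also 0.29 (-0.06 to 0.64). Summed per kilobase, Wnt6, Wnt7b and Wnt10a made up 19.2% ± 1.88 of the ligand level in controls and 26.2% ± 5.15 in mutants. The share by library was 21.7%, 17.4%, 18.2% and 19.3% in controls and 21.6%, 33.3%, 23.4% and 26.4% in mutants, so control replicate 1 overlapped mutant replicate 1. These 3 ligands were picked for their higher mutant means, so the direction of this share follows from the choice, and without mutant replicate 2 the mutant mean was 23.8%.

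The most abundant ligands showed small differences. Wnt5a, which signals through ROR2, had 3248.8, 3616.8, 5934.1 and 3285.9 normalised counts in controls and 3653.4, 3638.2, 3742.5 and 3988.2 in mutants. Control replicate 3 stood far above the other 7 libraries. The log2 difference was -0.05 (95% interval -0.39 to 0.29), and without control replicate 3 it was 0.15. Wnt11 averaged 2416 ± 383 against 2155 ± 547, with a log2 difference of -0.19 (-0.55 to 0.17), which went to -0.03 without mutant replicate 2, its lowest library at 1526.6. Wnt5a and Wnt11 together made up 40.6% ± 3.60 of the ligand level per kilobase in controls, against 33.5% ± 6.36 for the mutants (SD, n = 4 each). The shares overlapped, at 36.6% to 43.9% in controls and 25.1% to 39.1% in mutants, and the mutant mean was 36.4% without mutant replicate 2.

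Wnt16, a ligand known for its part in cortical bone, differed by 0.09 (95% interval -0.26 to 0.45). Control replicate 3 was again its highest library, at 1630.2, and without it the difference was 0.27. Wnt9a, a ligand of joint formation, differed by -0.08 (-0.40 to 0.25). Wnt5b differed by 0.11 (-0.19 to 0.40), but its gene shares 2963 bp with Fbxl14 on the opposite strand, which had a mean of 2050.7 normalised counts against 482.4 for Wnt5b. No source used here states the strand setting of the counting, so reads of this pair may be divided wrongly.

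The scarce ligands varied widely between libraries and had wide intervals. Wnt7a, which patterns the dorsal side of limbs, had 19.2, 7.8, 0.0 and 5.9 normalised counts in controls and 10.7, 91.8, 1.9 and 45.5 in mutants, and the 95% interval of its log2 difference ran from -0.82 to 4.27. Mutant replicates 2 and 4 were the high ones, as for Wnt10a. Wnt3, at most 27.7 outside mutant replicate 2, where it was highest, had an interval of -1.65 to 1.90. Wnt9b had one of -2.56 to 0.73. Wnt2, Wnt2b, Wnt3a and Wnt8b had log2 differences of 0.42, 0.26, 0.09 and 0.49, with intervals that all included 0.

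**Figure D4:**
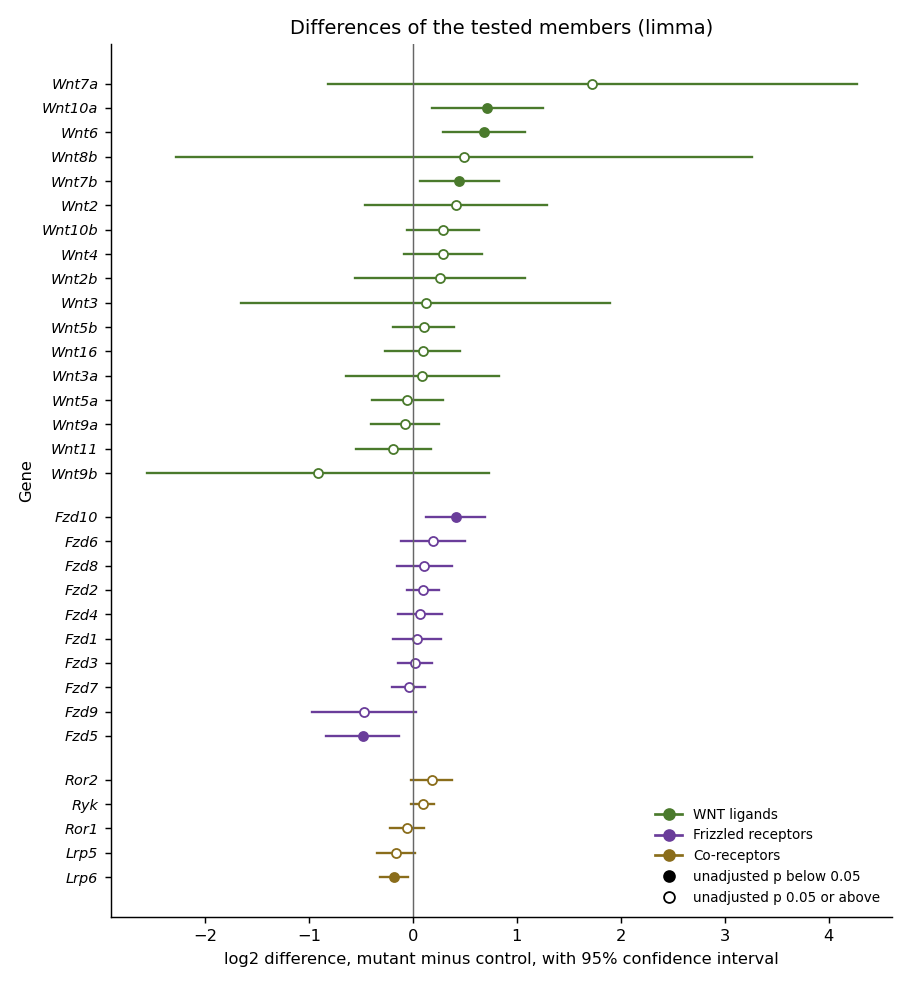
Log2 difference of mutants minus controls (x axis) with its 95% confidence interval from limma for each of the 32 tested members, sorted within ligands, Frizzled receptors and co-receptors; filled points have an unadjusted p below 0.05. Intervals are narrow for abundant receptors such as Fzd3 (-0.15 to 0.18) and wide for scarce ligands such as Wnt7a.

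Among the Frizzled receptors, Fzd2 had the highest per-kilobase level in controls, 2632 ± 138 (SD, n = 4). Fzd1 followed at 1850 ± 109 and Fzd7, the receptor most like these in sequence, at 869 ± 50.4, each separated from the next with no overlap of control ranges. This trio made up 76.1% ± 0.520 of the summed Frizzled level in controls and 75.9% ± 2.40 in mutants. Fzd4, known for its role in blood vessels, lay at 411 ± 32.0, and Fzd8, Fzd9, Fzd10, Fzd6 and Fzd3 between 304 and 179 with each control range overlapping the next. The exon length used for Fzd8, 5974 bp, is longer than its gene in the deposited coordinates (9212856 to 9216201). Its level may therefore be too low and the share of the trio too high, and its place below Fzd4 is not settled. Fzd5 was the scarcest, at 65.9 ± 6.04, below every other Frizzled gene.

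The abundant Frizzled genes differed little between the groups. Log2 differences were 0.10 for Fzd2 (95% interval -0.05 to 0.25), 0.04 for Fzd1 (-0.19 to 0.27) and -0.04 for Fzd7 (-0.20 to 0.11). The widest of these 3 intervals reached 0.27 on the log2 scale. Fzd3, a receptor of planar cell polarity and axon guidance, differed by 0.02 (-0.15 to 0.18), and Fzd6, which acts with it in hair and skin polarity, by 0.20 (-0.11 to 0.50). Fzd4 and Fzd8 differed by 0.07 (-0.14 to 0.28) and 0.11 (-0.15 to 0.38).

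Fzd10 was the receptor with the smallest p. The controls had 824.2, 821.9, 973.6 and 651.1 normalised counts, and mutants 998.7, 1172.7, 929.1 and 1240.1. Control replicate 3 lay above mutant replicate 3, and the other controls were below all mutants. Means were 818 ± 132 and 1085 ± 145 (SD, n = 4 each), a log2 difference of 0.41 (95% interval 0.13 to 0.70, unadjusted p = 0.0085, limma adjusted p = 0.754).

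Fzd5, a beta-catenin pathway receptor of eye and gut, went the other way. Controls had 485.6, 480.3, 395.0 and 462.5 normalised counts and mutants 289.8, 261.2, 351.2 and 420.8. Only mutant replicate 4 lay within the control range, above control replicate 3. The log2 difference was -0.48 (95% interval -0.83 to -0.13, unadjusted p = 0.0113, limma adjusted p = 0.754). With the first number of the library titles as a block it was -0.27 and no longer had an unadjusted p below 0.05.

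Fzd9, a receptor known in bone-forming cells, had 735.8, 568.1, 590.9 and 549.0 normalised counts in controls and 628.2, 255.5, 454.4 and 503.7 in mutants. Mutant replicate 1 lay among the controls and mutant replicate 2 was far the lowest. The log2 difference was -0.47 (95% interval -0.97 to 0.03, unadjusted p = 0.0624, limma adjusted p = 0.767), and it was -0.21 without mutant replicate 2 and -0.64 without mutant replicate 1. Osteogenic, chondrogenic and endothelial markers were all lowest in the same library. The mean log2 level of osteogenic markers relative to controls was -0.53, -1.60, -1.23 and -0.52 in mutant replicates 1 to 4, and -0.39 to 0.56 in controls. For chondrogenic markers it was 0.29, -0.97, -0.88 and -0.54, and -0.79 to 0.96 in controls. For endothelial markers it was -0.03, -0.35, -0.10 and -0.08, and -0.05 to 0.05 in controls. Summed counts of the 14 osteogenic genes ran from 75404 to 104056 in controls and from 46730 to 72459 in mutants, with Bglap at 0 in all libraries. Whether osteogenic, chondrogenic or endothelial content plays a part in the Fzd9 and Fzd5 values was not tested.

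Of the co-receptors, Ryk had the highest per-kilobase level in controls, 1037 ± 37.6 (SD, n = 4), above Lrp5 at 904 ± 68.8 without overlap. Lrp5 overlapped Ror2 at 793 ± 114. Lrp6 at 586 ± 47.2 and Ror1 at 251 ± 8.34 were each separate from the gene above.

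Lrp6, the main co-receptor of the beta-catenin branch in the embryo, was lower in every mutant library. Controls had 7565.5, 8006.6, 8928.9 and 7551.9 normalised counts, and mutants 6902.3, 6964.0, 7184.0 and 7218.8. The mutants lay within a span narrower than that of the controls. Means were 8013 ± 646 and 7067 ± 158 (SD, n = 4 each), a log2 difference of -0.18 (95% interval -0.31 to -0.05, unadjusted p = 0.0128, limma adjusted p = 0.754), and -0.12 without control replicate 3, the highest library. Lrp5, whose human gene is known for setting bone mass, had 9561.0, 9091.2, 8532.9 and 8017.4 in controls and 8800.4, 6674.4, 7871.0 and 8231.3 in mutants. The groups overlapped, and the log2 difference of -0.16 (-0.35 to 0.02) was -0.08 without mutant replicate 2 and -0.22 without mutant replicate 1.

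Of the receptors of the other branches, Ror2 and Ryk had higher means in mutants and Ror1 a lower one, all with intervals that included 0. Ror2, the WNT5A receptor, had 2978.3, 3610.9, 3924.3 and 2946.1 normalised counts in controls and 3939.3, 3653.3, 3819.7 and 3738.4 in mutants. Control replicates 1 and 4 were low and control replicate 3 was near the top of all libraries. The log2 difference was 0.18 (95% interval -0.01 to 0.38, unadjusted p = 0.0653), and 0.26 without control replicate 3. Ryk differed by 0.10 (-0.02 to 0.21) and Ror1 by -0.06 (-0.22 to 0.11).

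Titles of some libraries start with the same number: control replicates 2 and 4 and mutant replicate 4 share 2057, and control replicate 3 and mutant replicates 2 and 3 share 3602. What the number stands for is not said. A second number in the titles differs between the libraries of each set, and its meaning is not said either. Each set has a single library of 1 group. Within both sets every mutant lay above every control for Wnt6 (log2 differences 0.82 and 0.56) and Wnt10a (1.12 and 0.86), and below for Fzd5 (-0.16 and -0.38) and Lrp6 (-0.11 and -0.34). Wnt7b (0.55 and 0.19) and Fzd10 (0.76 and 0.10) overlapped in the set numbered 3602. These genes were picked for their p over the same libraries. Their order within the sets follows in part from that choice and adds no separate support. The share of all genes ordered this way is not given here. With the number as a block in limma, neither Fzd5 nor Wnt7b, at 0.37, kept an unadjusted p below 0.05.

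Other genes of the pathway were followed through 5 lists holding 90 genes, of which 88 were tested. None passed limma after adjustment over all genes, and 0 passed in edgeR or DESeq2. An unadjusted limma p below 0.05 was found for 12 (13.6%, against 6.57% of all genes), 8 lower and 4 higher in mutants. The means divided into 44 higher and 44 lower, with a median log2 difference of -0.0006.

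Secreted and membrane inhibitors held the largest differences. Of 19 tested, 3 were lower and 1 higher at an unadjusted limma p below 0.05 (15.8% and 5.26%, against 3.79% and 2.78% of all genes). Groups did not overlap for 2 lower genes and 1 higher (10.5% and 5.26%, against 1.91% and 1.86% of all genes), namely Wif1, the scarce Cer1 and Kremen2. Cer1, which was chosen after its values were seen, had 12.8 to 18.5 normalised counts in controls and 1.9 to 12.6 in mutants. Wif1, which binds WNT ligands outside the cell, averaged 766 ± 108 normalised counts among controls and 529 ± 54.0 among mutants (SD, n = 4 each) without overlap. Dkk1, which blocks LRP5 and LRP6, had 240 ± 99.1 and 81.6 ± 53.4, with control replicate 3 among the mutants at 101.6. Its highest mutant was replicate 4, at 157.8. Osteogenic markers also had their lowest control level in replicate 3 (-0.39) and their highest mutant level in replicate 4 (-0.52). The highest control and the lowest mutant were different libraries for Dkk1 and these markers. Whether osteogenic content plays a part in the Dkk1 values was not tested. Kremen2, a receptor that works with DKK1 against LRP6, had 733 ± 126 and 1056 ± 176 without overlap, a log2 difference of 0.53 (limma adjusted p = 0.751). Sfrp1, a soluble Frizzled-like decoy, differed by -0.21.

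Genes switched on by beta-catenin showed no common direction, with 9 of 18 tested higher, 9 lower and a median log2 difference of 0.00. Wisp1 was lower in every mutant library, with 2046 ± 238 and 1490 ± 217 normalised counts (log2 difference -0.46, limma adjusted p = 0.751), and Ccnd1, cyclin D1, differed by -0.19. No other target gene was without overlap (5.56% lower, against 1.91% of all genes). Cd44 and Lef1 differed by -0.24 and 0.26. Axin2, a feedback target often read as a measure of the pathway, had 3639 ± 459 and 3959 ± 317 with overlap. It was chosen after its values were seen.

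Intracellular components divided into 12 higher and 13 lower of 25 tested, with a median of -0.0028. Tcf7l1, a repressive TCF factor, had 6139 ± 243 and 5590 ± 149 without overlap, and Dvl1, a dishevelled protein that relays Frizzled signals, had 2058 ± 149 and 2326 ± 92.4. Pygo1 and Csnk1a1 differed by -0.16 and 0.10. Planar cell polarity genes were higher for 16 of 22 tested, with a median of 0.06. Vangl1, a membrane protein of that system, had 908 ± 70.7 and 1039 ± 28.4 without overlap, and the cadherin gene Celsr1 had 4527 ± 323 and 5520 ± 1106. Lower without overlap were Sec24b, needed to carry Vangl2 to the surface, at 4190 ± 169 and 3793 ± 125, and the formin gene Daam1 at 2143 ± 44.3 and 1983 ± 61.0. Daam1 was chosen after its values were seen. Of the planar cell polarity genes tested, 9.09% were lower and 4.55% higher without overlap, against 1.91% and 1.86% of all genes. Genes of secretion and surface modulation were lower for 10 of 16, with a median of -0.04. The glypican gene Gpc6 differed by -0.19, the ubiquitin ligase gene Rnf43, which removes Frizzled receptors, by 0.26, Gpc4 by -0.13 and Lgr6, an R-spondin receptor, by -0.15.

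**Figure D5:**
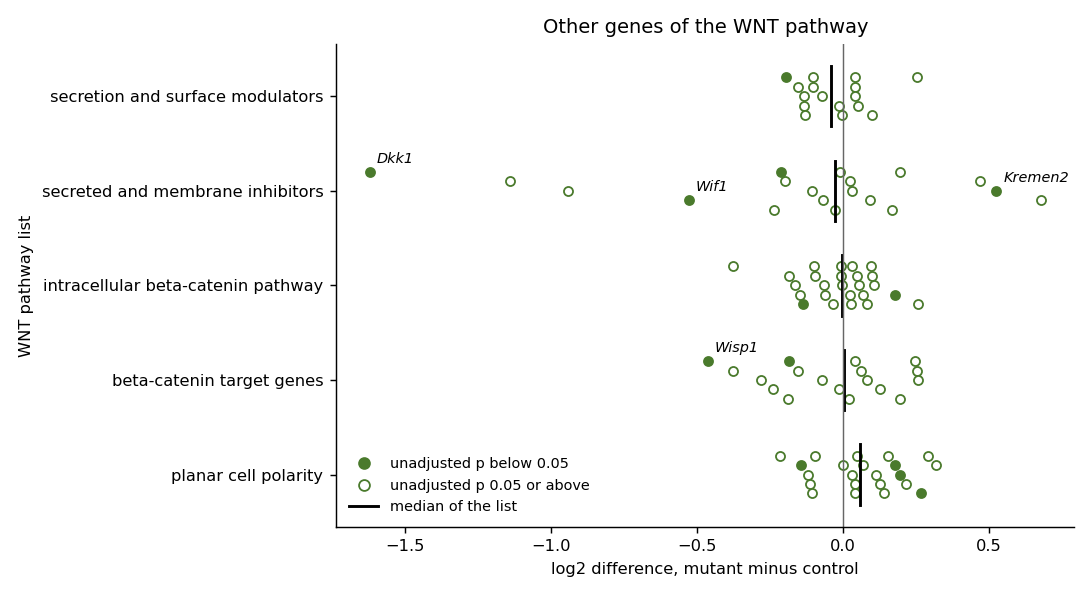
Log2 difference of mutants minus controls (x axis) for each tested gene of 5 lists of WNT pathway genes, with a black bar at each list's median; filled points have an unadjusted limma p below 0.05. The medians lie between -0.04 and 0.06, and Dkk1 (-1.62), Wif1 (-0.53), Wisp1 (-0.46) and Kremen2 (0.53) stand out among the filled points.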

How the data were processed

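RNA from 8 libraries, 4 controls and 4 mutants as the labels give them, was compared in 1 contrast, and replicates were numbered in accession order, which pairs nothing. The signal values were deposited by the authors as normalised counts, each library's reads over a single size factor, to 1 decimal. The authors also deposited variance-stabilised log2 values, with a floor of 9.47, which served only as an alternative. The submitters' processing notes name STAR 2.7.2 and DESeq2. No counter, strand setting, annotation or build is given in the sources used. Between 50 and 5000, 100% of normalised counts were whole reads within 0.06, which gave 29025089 to 32437977 reads per library. At this depth a count of 0 allows 3 reads, for counting error only.

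Limma 3.58.1 (R 4.3.3) with an intensity trend was fitted to log2(normalised count + 1) for genes with at least 10 normalised counts in at least 4 libraries, two-sided, with Benjamini-Hochberg adjustment at 0.05 over 16647 genes, and was tested on simulated data. Alternatives were other pseudocounts and filters, TMM scaling, stabilised values, the title number as a block, each library left out, and edgeR 4.0.16 and DESeq2 1.42.0 on recovered reads. Exon lengths came from GENCODE for GRCm38. Gene positions equalled that annotation for 95.2% of IDs in both and for 30 of the 34 members. A length may be wrong where they differ, as for Fzd8. The gene family, its symbol rule and the lists were chosen with earlier results of these data known. Named in full were members with an unadjusted p below 0.05 or without overlap, and up to 4 genes per pathway list with the smallest p. Figures used matplotlib 3.10.9.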

Additional observations from a re-analysis of the deposited data

Results flagged for a closer look

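In 64 groups of 4 libraries, 3 held a library whose gap to the nearest other exceeded Dixon's 95% limit, which chance passes in about 1 in 20 groups. Wnt5a in control replicate 3 was at 5934.1 normalised counts, against 3248.8 to 3616.8 in the other controls. Fzd2 in the same library was at 10389.8, against 9297.1 to 9437.5. Fzd6 in mutant replicate 2 was at 1326.0, against 1042.8 to 1067.1 in the other mutants.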

How the results depend on the processing

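Under all 17 alternatives, 0 members and 0 of the other WNT pathway genes passed after adjustment. The number of members at an unadjusted p below 0.05 ranged, with 1 library left out, from 3 to 8 higher in mutants and from 2 to 4 lower. The 8 came without control replicate 3, which added Wnt4, Wnt5a, Wnt16 and Ror2, and the 4 without mutant replicate 1, which added Lrp5 and Fzd9. Wnt6, Wnt10a, Fzd10 and Lrp6 kept an unadjusted p below 0.05 under all 17, Fzd5 under 16 and Wnt7b under 13. With the title number as a block, Fzd5 was at -0.27 and Wnt7b at 0.37, both no longer below 0.05, while Wnt7a and Wnt11 came below it. On the authors' stabilised scale, which is compressed at low counts, Wnt6 was at 0.31 and Wnt10a at 0.22. Over all tested members 21 of 32 kept their direction under every alternative that could be fitted for them, and the 11 that did not have intervals that include 0. TMM scaling moved the median of all genes to 0.0032. Leaving mutant replicate 2 out of the ligand shares was chosen after seeing the data. Depth limits Wnt1 and Wnt8a, at 0 in 8 and 6 libraries, where a count of 0 allows up to 3 reads.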
